A study of Homo sapiens with 4 samples.

Results

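The genes described here are 54 genes of the distal long arm of chromosome 15 (15q22 to the end of the arm) most of whose mRNAs were lower in HEK293T cells without intact HELZ. They were selected on the measured values themselves: a run of lowered genes had been seen in the contrast of HELZ-null with WT libraries, and the members were listed from it. All 54 were found among the 27011 genes of the count table, and 48 of them passed the filter on low values and are among the 11310 genes tested. Of these 48, SENP8 was above the filter in the WT group only. The listed genes span chr15:66018392-102065405 of hg19 (GRCh37), from the start of RAB11A to the end of PCSK6. Because the same contrast chose them, their lowered levels are given as a description and as support for nothing. The same holds for the calls of the test of single genes below.

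RNA-Seq was done on 4 libraries of HEK293T, an established human embryonic kidney cell line. The WT group had 2 libraries of unedited cells and the HELZ-null group had 2 libraries of a line in which Cas9 and a guide RNA had produced a frameshifting deletion in the HELZ gene, with no further treatment in either group. Cells were harvested 24 h after plating, and total RNA was made into libraries with the TruSeq kit. Both HELZ-null libraries come from 1 edited line, whose clonal origin is not given in the sources used here, so that the genotype and any other difference between the 2 lines cannot be told apart. Counts summed to 65005666 and 42342295 in WT replicates 1 and 2 and to 41745401 and 70464140 in HELZ-null replicates 1 and 2. The replicates are described as biological, and the p-values below measure only the spread between these libraries.

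HELZ is a putative RNA helicase of the UPF1-like family with a CCCH zinc finger, and it binds the CCR4-NOT complex, which shortens poly(A) tails. The distal part of 15q is not a pathway: it carries signalling kinases, a growth factor receptor, lysosomal hydrolases, mitochondrial enzymes and DNA repair factors side by side. What its genes have in common is their place on the chromosome, and most have relatives or binding partners encoded on other chromosomes.

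HELZ itself, on chromosome 17 (65066560 to 65242105, minus strand), was measured first. In CPM, counts scaled to a common library total and, here and below, by TMM factors, WT cells had 97.6 and 101.6 and HELZ-null cells 36.2 and 37.1 of this transcript. The groups did not overlap, and the change was -1.44 on the log2 scale (SE 0.042, adjusted p = 2.00e-29 from the edgeR quasi-likelihood test), in the direction of the labels.

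Of the HEK293 markers, VIM, NEFM, NEFL and INA were well above the filter in mean FPKM, the CPM before TMM scaling per kilobase of gene width, at 468, 91.0, 27.1 and 16.0, and PAX2 was at 1.39. Markers of other cell types were at or near 0. DCN had 0 counts in each library, which allows up to 0.072 CPM in the shallowest one (3 counts; the limit doubles if both mates of a pair were counted), PTPRC, CD3E, PECAM1 and ALB had at most 6 counts in any library, and COL3A1 had a mean of 0.465 FPKM. Among the neurofilament markers, NEFM had 236 and 226 CPM in WT against 428 and 425 CPM in HELZ-null libraries, and INA had 72.9 and 67.1 against 32.3 and 34.9 CPM, while NEFL overlapped (-0.044 on the log2 scale, SE 0.037). PAX2 (0.35, SE 0.12), VIM (-0.15, SE 0.024) and COL3A1 (-0.35, SE 0.17) also differed without overlap. The part of these differences in the values below was not tested.

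Across the 48 tested members, the median log2 fold change (log2FC, HELZ-null against WT) was -0.30, a level of 81.1% of WT, while the median over all 11310 tested genes was -0.0016. Summed over all 54 members, WT libraries had 4216 and 4196 CPM and HELZ-null libraries 3344 and 3354 CPM, or 79.6% of WT. Each of the 4 pairs of a HELZ-null and a WT library gave nearly the same median over the members, from -0.32 to -0.31 (SD 0.0043 over the 4 pairs). The pairs share libraries and are not independent, so this SD does not measure the spread between replicates. Between the replicates of a group the members' median difference was -0.0065 in WT and -0.0018 in HELZ-null cells. In RNA from bulk cells, fewer cells with a transcript and less of it per cell cannot be told apart.

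At a false discovery rate (FDR) under 0.005 in the edgeR quasi-likelihood test, 42 of the 48 tested members were called lower and 0 were called higher. Over all tested genes 28.4% were called, 15.0% lower and 13.5% higher. Both HELZ-null libraries lay below both WT libraries for 45 of the 48 members, beside 35.2% of all tested genes. Since the members were chosen on this contrast, nothing is read from these counts. Below, the median of -0.30 is called the common shift, and a member departs from it where all 4 library pairs lie on one side of it by more than 0.15.

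By this measure 40 members lay with the common shift, 5 were less lowered (LOXL1, IDH2, CTSH, HEXA and MTHFS) and 3 were more lowered (SENP8, ARNT2 and FEM1B). The number of more lowered members depended on single libraries: it was 6 without WT replicate 2, with MYO9A, PARP6 and MPI added, and 7 without HELZ-null replicate 2, with CLN6, MYO9A, PARP6 and CSK added. Leaving out a library takes pairs away from the rule, so members can mostly only be added, as the rule's construction implies. The quartiles of the members' log2FC were -0.39 and -0.24. Their median absolute deviation about the median was 0.077, beside 0.099 for the 124 unlisted tested genes of the interval, 0.085 for the 187 tested genes of chromosome 15 before it and 0.11 for all tested genes. The members were chosen as lowered genes and were more abundant (median FPKM 15.4, against 9.96 for the unlisted and 7.70 for the 187 genes), so nothing is read from this spread. The plot of library pairs by member shows the 8 departing genes on either side of the others.

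**Figure D1:**
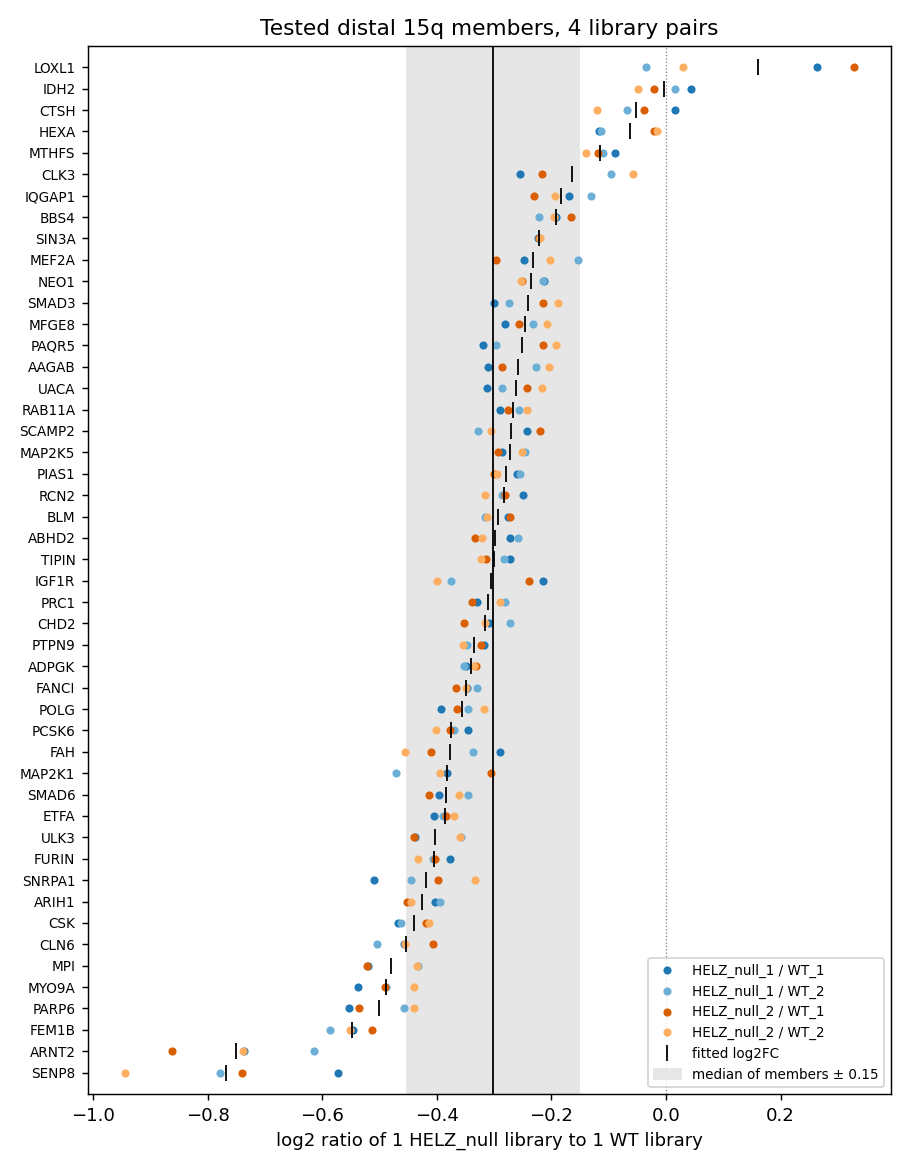
Log2 ratio of each HELZ-null library to each WT library (4 dots per gene) and the fitted log2FC (bar) for the 48 tested members, sorted by log2FC. The line marks the median of -0.30 and the grey band reaches 0.15 to each side; 5 genes lie wholly to the right of the band and 3 wholly to its left.

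LOXL1, a lysyl oxidase that crosslinks elastin (chr15:74218330-74244478, plus strand), was the only tested member with a log2FC above 0. WT libraries had 8.24 and 10.1 CPM of it, and HELZ-null libraries 9.90 and 10.3 CPM. The groups overlapped, and the log2FC was 0.16 (SE 0.099). Single WT libraries set its size: the log2FC was 0.0019 without WT replicate 1 and 0.30 without WT replicate 2. The gene overlaps LOXL1-AS1, an antisense RNA gene on the other strand, by 2260 bases of their spans. LOXL1-AS1 had a log2FC of -0.80 (SE 0.11). The use of strand in counting is not given in the sources used here, so the division of reads between the overlapping genes is uncertain.

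IDH2, the mitochondrial NADP-dependent isocitrate dehydrogenase (chr15:90626277-90645709, minus strand), had 67.7 and 69.0 CPM in WT and 69.8 and 66.8 CPM in HELZ-null libraries. The values of the 2 groups were interleaved, with a log2FC of -0.0035 (SE 0.041) whose sign turned under library size scaling, among other settings. The nearest tested genes that do not overlap it, ZNF710 and SEMA4B, had log2FC values of -0.33 (SE 0.061) and -0.33 (SE 0.078). The distance of IDH2 from both neighbours was about the size of the common shift and was not tested.

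The lysosomal members divided. HEXA, a hydrolase that degrades GM2 ganglioside (chr15:72633265-72668761, minus strand), had 87.3 and 87.0 CPM in WT and 80.5 and 86.1 CPM in HELZ-null libraries. HELZ-null replicate 2 lay just below the WT libraries, and the log2FC was -0.062 (SE 0.038), with a range of -0.11 to -0.018 over 12 other settings. HEXA lies between PARP6 and ARIH1, both members, at -0.50 (SE 0.057) and -0.43 (SE 0.036). CTSH, the lysosomal cysteine protease cathepsin H (chr15:79213400-79241916, minus strand), had 31.0 and 32.9 CPM in WT against 31.4 and 30.2 CPM in HELZ-null libraries. These values overlapped, with a log2FC of -0.052 (SE 0.057, -0.097 to -0.012 over the other settings), and the neighbours MORF4L1 and TMED3 were at -0.37 and -0.32. CLN6, a membrane protein of the endoplasmic reticulum needed for lysosomal function, was lowered instead, from 145 and 149.9 CPM to 106 and 109 CPM (log2FC -0.45, SE 0.034).

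MTHFS, which converts 5-formyltetrahydrofolate in folate metabolism (chr15:80125927-80189721, minus strand), was the fifth less lowered member. Its WT libraries had 26.2 and 26.6 CPM and its HELZ-null libraries 24.6 and 24.1 CPM, a small separation without overlap (log2FC -0.11, SE 0.062). The span of ST20-MTHFS, a readthrough gene on the same strand, shares 52230 bases with it and had a log2FC of -0.11 as well. Reads of the shared exons could be counted for either, so these 2 values are not independent. The nearest tested genes that do not overlap MTHFS, TMED3 and ST20, were at -0.32 (SE 0.036) and -0.36 (SE 0.12), and no difference from them was tested.

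The other 5 metabolic enzymes were near the common shift or below it. ETFA, a subunit of the electron transfer flavoprotein that passes electrons from fatty acid oxidation to the respiratory chain, was the most abundant member per length, with 150.3 and 149 FPKM in WT and 116 and 118 FPKM in HELZ-null libraries. Its log2FC was -0.39 (SE 0.031). MPI, which links mannose to glycolysis by interconverting mannose and fructose 6-phosphates, had 149 and 139.9 CPM in WT and 103.6 and 103.5 CPM in HELZ-null libraries (log2FC -0.48, SE 0.035). FAH, the last enzyme of tyrosine breakdown, the ADP-dependent glucokinase ADPGK and the lipase ABHD2 had log2FC values of -0.38, -0.34 and -0.30. Over the 7 tested metabolic enzymes the median was -0.34, and IDH2 and MTHFS had the values nearest to 0; differences between the enzymes were not tested.

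**Figure D2:**
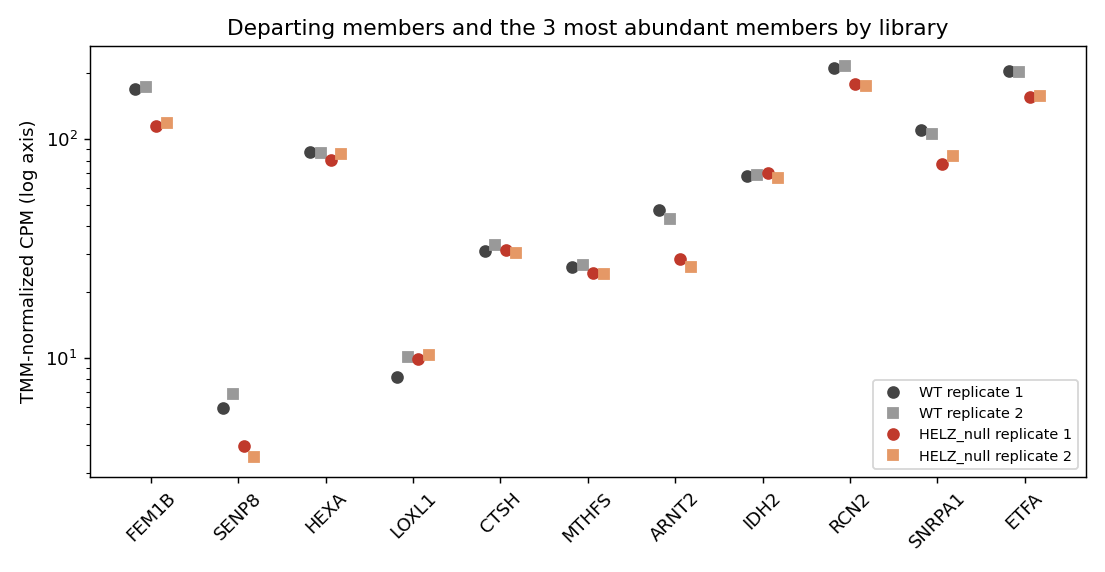
TMM-normalized CPM (log axis) in each of the 4 libraries for the 8 departing members, in chromosome order, and for RCN2, SNRPA1 and ETFA, the 3 most abundant members by FPKM. The ranges of the 2 groups overlap for LOXL1, CTSH and IDH2, and the HELZ-null libraries lie well below the WT libraries for FEM1B, SENP8 and ARNT2.

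Among the more lowered members, ARNT2 (chr15:80696692-80890274, plus strand) encodes a bHLH-PAS transcription factor that pairs with SIM1 and HIF proteins. It had 47.3 and 43.5 CPM in WT and 28.4 and 26.0 CPM in HELZ-null libraries. The gap between the groups was many times that between replicates, with a log2FC of -0.75 (SE 0.056), whereas its neighbours FAH and ABHD17C were at -0.38 and -0.31. The remaining transcription and chromatin genes were close to each other: the corepressor scaffold SIN3A at -0.22, the MADS-box factor MEF2A at -0.23 and the chromatin remodeller CHD2 at -0.32. SIN3A was also among the most even, with 113 and 113 CPM in WT and 96.8 and 96.9 CPM in HELZ-null libraries.

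The 5 tested genes of protein modification had a median of -0.50, or -0.46 over the 4 without SENP8. SENP8, a protease that processes and removes NEDD8 (chr15:72406599-72436033, plus strand), had 5.93 and 6.85 CPM in WT and 3.98 and 3.54 CPM in HELZ-null libraries, from 168 to 381 counts each. Its log2FC of -0.77 (SE 0.13) was the least precise among the tested members. With mean FPKM of 2.75 in WT and 1.66 in HELZ-null libraries it was tested only because of its WT level, so its place among the more lowered members supports nothing. Its order with ARNT2 was not fixed: without WT replicate 2 SENP8 was at -0.67 and ARNT2 at -0.80. SENP8 overlaps MYO9A, another member on the opposite strand, by 4320 bases, so the counts of both are uncertain there. FEM1B, a substrate receptor of a cullin 2 ubiquitin ligase (chr15:68570083-68588200, plus strand), had 169 and 174 CPM in WT and 116 and 118 CPM in HELZ-null libraries. With a log2FC of -0.55 (SE 0.033) it was the more lowered member with the highest counts, and CLN6 and ANP32A on its 2 sides were at -0.45 and -0.37. PARP6, a mono-ADP-ribosyltransferase, the RBR ubiquitin ligase ARIH1 and the SUMO ligase PIAS1 had log2FC values of -0.50, -0.43 and -0.28.

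Promoter sequence is shown for the 4 departing members with exon-free bases before the start of their main transcript, the canonical one of GENCODE. RefSeq promoter windows (GRCh38.p14) were found for 50 of the 54 members. PAQR5, HEXA, ARNT2 and FANCI had no entry. Of the other departing members, LOXL1 is not shown because its window lies wholly within annotated exons. IDH2 is not shown because the start of its only window was 1847 bases from that of its main transcript, above the limit of 500. The stretches below, the exon-free bases of the window nearest to the start and at most 100 long, were placed on GRCh37 by exact match of the window and are written 5′ to 3′ on the strand of the gene. The main transcript starts 4145, 4528 and 365 bases inside the gene spans given above for SENP8, CTSH and MTHFS, and at the edge of the span for FEM1B. Between stretch and start lie 98 bases for SENP8, 48 for CTSH and 0 for the other 2 genes. Capitals mark matches on either strand to the CCAAT box, the GC box GGGCGG, the TATA motif TATAAA or the ETS motif CCGGAAG, none of which contains another.
FEM1B (chr15:68569983-68570082, plus strand): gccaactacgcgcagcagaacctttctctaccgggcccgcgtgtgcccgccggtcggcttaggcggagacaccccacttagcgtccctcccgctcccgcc
SENP8 (chr15:72410565-72410645, plus strand): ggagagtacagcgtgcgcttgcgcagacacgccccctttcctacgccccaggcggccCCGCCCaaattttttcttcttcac
CTSH (chr15:79237437-79237536, minus strand): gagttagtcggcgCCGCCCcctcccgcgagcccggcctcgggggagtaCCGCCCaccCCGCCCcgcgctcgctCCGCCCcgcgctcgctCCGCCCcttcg
MTHFS (chr15:80189357-80189456, minus strand): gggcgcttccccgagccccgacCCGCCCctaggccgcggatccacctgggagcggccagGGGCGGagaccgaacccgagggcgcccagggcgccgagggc
The stretch of CTSH held 5 matches to GGGCGG, that of MTHFS 2, that of SENP8 1 and that of FEM1B 0, and nothing is read from these 4 counts. GGGCGG occurred in 57.8% of the 83 promoter windows of the members (250 bases before a start), in 65.7% of the 12301 windows of tested genes and in 42.6% of all 35116 windows. CCAAT occurred in 33.7%, 33.6% and 32.0% of the same windows, TATAAA in 7.23%, 5.18% and 10.7%, and CCGGAAG in 6.02%, 14.9% and 8.52%. A match is a description of these letters and not of a bound site.

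The 5 tested protein kinases had a median of -0.38. MAP2K1, the MAPK kinase that activates ERK, had 93.6 and 99.5 CPM in WT and 71.8 and 75.7 CPM in HELZ-null libraries (log2FC -0.38, SE 0.039). CSK, which phosphorylates the inhibitory tail tyrosine of Src family kinases, went from 144 and 143 CPM to 104 and 108 CPM (log2FC -0.44, SE 0.034). ULK3, a kinase related to the autophagy kinase ULK1, was at -0.40, and MAP2K5, the activator of ERK5, at -0.27. CLK3, which phosphorylates SR splicing factors, was the least lowered kinase, with 26.4 and 23.6 CPM in WT and 22.1 and 22.7 CPM in HELZ-null libraries (log2FC -0.16, SE 0.066). It was not called and did not depart by the 0.15 rule, since 2 of its library pairs lay within that margin. Single WT libraries moved it: without WT replicate 1 its log2FC was -0.075 and it was less lowered by the rule, and without WT replicate 2 the log2FC was -0.23. Its span overlaps that of EDC3 on the other strand by 14857 bases.

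Among DNA replication, repair and mitosis genes the values hardly differed. TIPIN, which with TIMELESS protects replication forks, BLM, a RecQ helicase, FANCI, which forms a DNA clamp with FANCD2, POLG, the catalytic subunit of the mitochondrial DNA polymerase, and PRC1, the antiparallel microtubule bundler of the spindle midzone, lay between -0.36 and -0.29. PRC1 had 229 and 221 CPM in WT and 182 and 181 CPM in HELZ-null libraries (log2FC -0.31, SE 0.031). BLM had 65.5 and 67.4 CPM in WT and 54.1 and 54.3 CPM in HELZ-null libraries (log2FC -0.29, SE 0.043). FANCI and POLG overlap on opposite strands by 12064 bases, so the division of reads between them is uncertain. Their log2FC values of -0.35 and -0.36 may for that reason not be independent.

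TIPIN and MAP2K1 start back to back, with 90 bases between their annotated starts. This was the only such pair of 2 members with starts under 1000 bases apart, and the sequence between them is shown for that reason. The genes were at -0.30 (SE 0.042) and -0.38 (SE 0.039), and the difference of 0.083 was not tested. It is read from GRCh37 on the plus strand, towards MAP2K1, with capitals as above.
TIPIN-MAP2K1 (chr15:66679085-66679174): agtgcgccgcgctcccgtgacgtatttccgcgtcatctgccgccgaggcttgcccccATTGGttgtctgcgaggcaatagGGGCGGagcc
The stretch held 1 match to CCAAT and 1 to GGGCGG. TIPIN had 69.8 and 70.3 CPM in WT and 57.8 and 56.2 CPM in HELZ-null libraries. BLM also starts back to back with another gene, CRTC3-AS1, across 204 bases, and these were at -0.29 and -0.57 (SE 0.22). CRTC3-AS1 was above the filter in WT only.

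The signal-transducing SMAD3, which carries TGF-beta signals to the nucleus, and the inhibitory SMAD6, which restrains BMP signals, sit next to each other. SMAD3 had 41.2 and 40.4 CPM in WT and 33.4 and 35.5 CPM in HELZ-null libraries (log2FC -0.24, SE 0.053). SMAD6 had 15.9 and 15.4 CPM in WT and 12.1 and 12.0 CPM in HELZ-null libraries (log2FC -0.38, SE 0.080). The activating and the inhibitory SMAD were thus lowered together, and the difference between them was not tested. Of the receptors, IGF1R, the tyrosine kinase receptor of insulin-like growth factors, had 68.91 and 77.03 CPM in WT and 59.41 and 58.42 CPM in HELZ-null libraries (log2FC -0.30, SE 0.045). NEO1, a receptor of netrins and RGM proteins, and the progestin receptor family member PAQR5 were at -0.23 and -0.25.

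FURIN and PCSK6 are proprotein convertases, which cut precursors of growth factors and receptors. FURIN had 80.9 and 82.6 CPM in WT and 62.3 and 61.2 CPM in HELZ-null libraries (log2FC -0.41, SE 0.040), and PCSK6 had 76.4 and 77.7 CPM in WT and 60.1 and 58.8 CPM in HELZ-null libraries (log2FC -0.37, SE 0.041). MFGE8, a secreted bridge between phosphatidylserine and integrins, was at -0.25. LOXL1 was the exception among the 4 tested secreted or matrix proteins. SNRPA1, the U2 small nuclear ribonucleoprotein A′ of the spliceosome, was among the 3 most abundant members, with 100.4 and 96.2 FPKM in WT and 72.2 and 77.9 FPKM in HELZ-null libraries (log2FC -0.42, SE 0.038). SNRPA1 and PCSK6 overlap by 5499 bases on the same strand.

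The 9 tested genes of membrane traffic and the cytoskeleton had a median of -0.27. RCN2, a calcium-binding protein of the endoplasmic reticulum and one of the 3 most abundant members by mean FPKM, had 92.3 and 94.9 FPKM in WT and 79.5 and 77.8 FPKM in HELZ-null libraries (log2FC -0.28, SE 0.031). RAB11A, the GTPase of recycling endosomes, had 184 and 179 CPM in WT and 150.2 and 152 CPM in HELZ-null libraries (log2FC -0.27, SE 0.031). IQGAP1, a scaffold that binds actin and small GTPases, was the least lowered of these genes, at -0.18, and MYO9A, an unconventional myosin that inactivates a small GTPase, the most lowered, at -0.49. BBS4, a BBSome subunit of primary cilia, was at -0.19, and SCAMP2, AAGAB, UACA and PTPN9 lay between -0.34 and -0.26. The order of IQGAP1 and BBS4 was not fixed: without WT replicate 2 IQGAP1 was at -0.20 and BBS4 at -0.18.

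The 6 members below the filter were MEGF11, CORO2B, THSD4, CELF6, STRA6 and FES, with mean FPKM between 0.041 and 0.860. Low counts limit what CELF6, STRA6 and FES can show most. MEGF11, a cell surface receptor of mosaic retinal spacing, had 4.66 and 5.16 CPM in WT and 5.12 and 5.38 CPM in HELZ-null libraries, and CORO2B, an actin-binding coronin, 2.28 and 2.46 against 2.36 and 2.32 CPM. Both pairs of groups overlapped, with log2FC values of 0.11 (SE 0.12) and -0.014 (SE 0.17) in a fit of every gene with a count. All 4 library pairs of MEGF11 and of CORO2B lay above the common shift by more than 0.15, from -0.011 and from -0.087 upwards. They would be less lowered by the rule, as would CELF6 with its 6 to 13 counts, but the rule was fixed for tested members and does not count them. THSD4, an extracellular matrix protein that promotes fibrillin assembly, was at -0.16 (SE 0.13), without overlap. The retinol uptake receptor STRA6, the tyrosine kinase FES and the RNA-binding protein CELF6 had at most 57 counts in any library, overlapping groups and SEs of 0.41, 0.29 and 0.83, so that a shift of the common size was not detectable in them at this depth.

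The size of the shift is set beside other properties of the members as a description only, since choosing genes by low values narrows their range and so limits any correlation. Across the 48 tested members, which share the same 4 libraries and are not independent, Spearman's rank correlation of log2FC was -0.14 with mean FPKM, 0.00098 with gene width in bases, 0.10 with span on the chromosome and 0.046 with position along it. Pearson's r was 0.010, -0.088, -0.0095 and 0.064, on log2 scales for all but position. The 27 members on the plus strand had a median of -0.30 and the 21 on the minus strand one of -0.31. Members whose span overlaps another tested gene, 17 in number, had a median of -0.34, and the other 31 one of -0.29.

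Genes of the same interval that had not been listed were lowered as well. Of 124 such tested genes 94 (75.8%) were called lower and 0 higher, beside 15.0% and 13.5% of all tested genes. Their median log2FC was -0.35, and 122 of them were below 0. Summed, they had 13327 and 13088 CPM in WT and 9963 and 9967 CPM in HELZ-null libraries, 75.4% of WT, against 98.1% for the 187 tested genes of chromosome 15 before the interval. That proximal group had 23 genes (12.3%) called lower and 21 (11.2%) higher, with a median of -0.0048. These counts describe an interval that was itself chosen from this contrast.

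**Figure D3:**
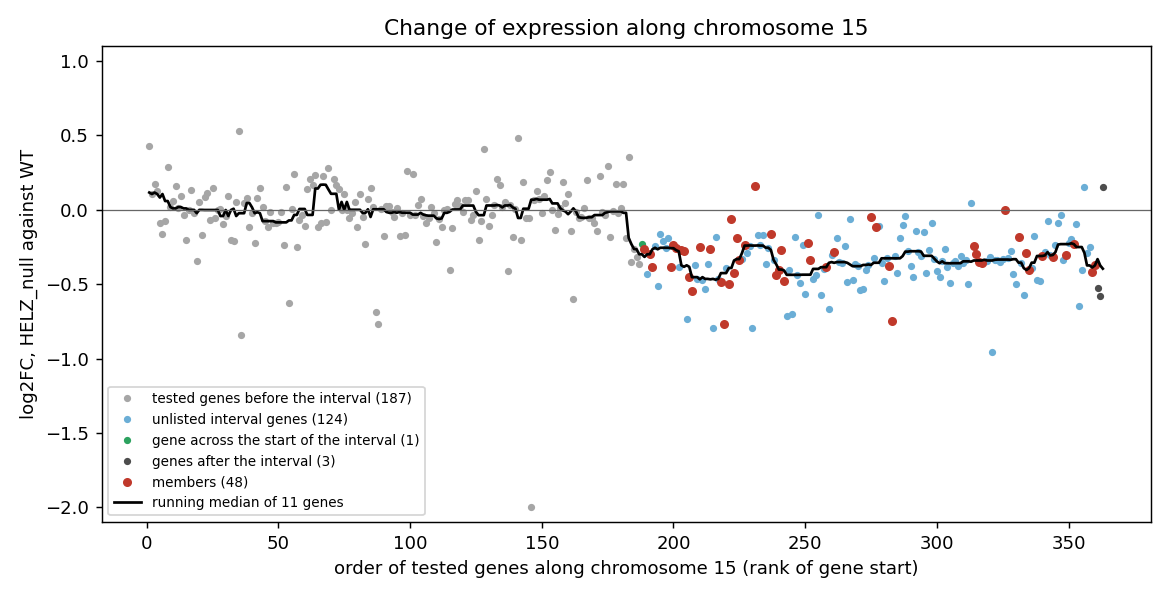
Log2FC of the tested genes of chromosome 15 in order of their start, with members in red, unlisted genes of the interval in blue and the running median of 11 genes as a line. The running median lies between -0.085 and 0.17 up to the last 15 genes before the interval and between -0.47 and -0.23 within it.

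Along the chromosome the lowered run began shortly before the first member. RAB11A, just inside the interval, was at -0.27, and DENND4A, whose span overlaps it and reaches outside, at -0.23 (SE 0.059). The 4 tested genes before that, named here after their values were seen, were also lower: SLC24A1 at -0.36, VWA9 at -0.32, HACD3 at -0.26 and DPP8 at -0.35. IGDCC3, the next tested gene on the proximal side, was at 0.35 (SE 0.078). Its span ends at position 65670340 and that of DPP8 starts at 65734801. The next tested genes before IGDCC3 differed in sign. PARP16 was at -0.19 (SE 0.076) and CLPX at 0.17 (SE 0.045), each without overlap of the groups. The edge of the run is thus not sharply set by these values. Beyond PCSK6 at the distal side, TM2D3 and TARSL2 were at -0.53 and -0.58, and WASH3P, a pseudogene with near-identical copies elsewhere whose counts are uncertain, at 0.15. Of the 172 tested genes in the interval, listed or not, 169 had a log2FC below 0.

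Within the interval the depth of the shift varied moderately. Members starting between 66 and 76 Mb had a median of -0.29 (28 tested), those from 76 to 86 Mb -0.33 (6), those from 86 to 96 Mb -0.30 (10) and those from 96 Mb onwards -0.34 (4). Unlisted genes in the same windows had medians of -0.37 (39), -0.35 (46), -0.34 (28) and -0.23 (11). A shift was present in every window, and its order by window differed between the listed and the unlisted genes.

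**Figure D4:**
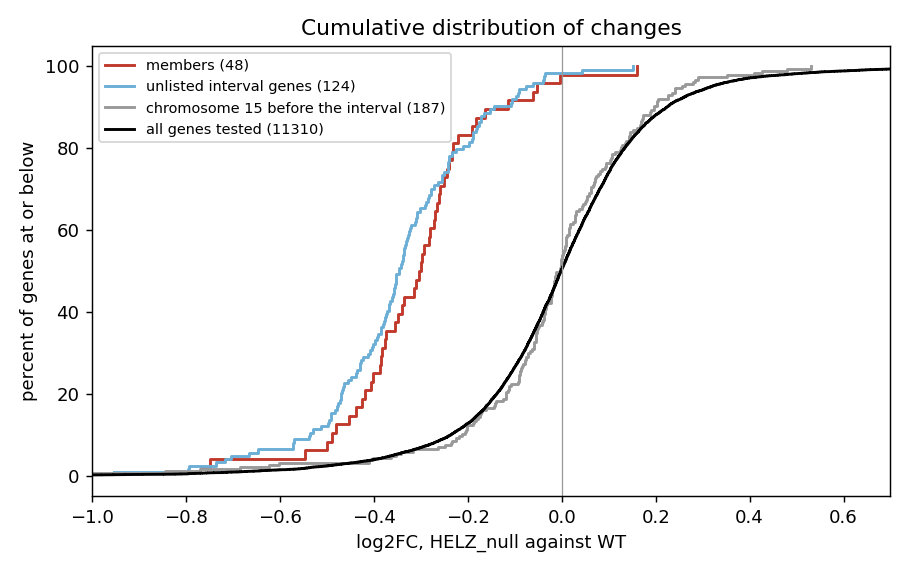
Cumulative percent of genes at or below each log2FC for the 48 tested members, the 124 unlisted genes of the interval, the 187 tested genes of chromosome 15 before it and all 11310 tested genes. The curves of the members (median -0.30) and of the unlisted genes (median -0.35) lie to the left of the other curves, whose medians are near 0.

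The 5 unlisted genes with the lowest log2FC were MESP1, a mesoderm bHLH factor, at -0.95 (SE 0.11), LOXL1-AS1 at -0.80, LARP6, which binds collagen mRNA, at -0.79, CALML4, a calmodulin-like protein, at -0.74, and FAM219B at -0.72. CALML4 was above the filter only in WT (mean FPKM 2.48 against 1.53), so its place among these genes follows in part from the filter. CALML4 overlaps the member PIAS1 and FAM219B the member MPI, each on the opposite strand. The 5 with the highest were ALDH1A3, a retinaldehyde dehydrogenase, at 0.15 (SE 0.10), HAPLN3, a hyaluronan link protein, at 0.044 (SE 0.087), MIR1469 at -0.035 (SE 0.54) with 8 to 15 counts, the sorting nexin SNX33 at -0.037 (SE 0.084) and the RNA-binding protein MEX3B at -0.039 (SE 0.079). None of these 5 passed the threshold of the edgeR quasi-likelihood test, with adjusted p values between 0.231 and 0.967. Genes that stood out from the shift were thus found among listed and unlisted genes.

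Paralogs of the members on other chromosomes were not used in the selection. For 34 members 1 paralog each was listed, and 28 were tested, with a median log2FC of 0.059. Of these, 3 (10.7%) were called lower and 6 (21.4%) higher, beside 15.0% and 13.5% of all tested genes, so nothing particular to paralogs is read from the counts. In 25 of the 26 pairs with both genes tested, the member had the lower log2FC. The exception was LOXL1, whose paralog LOX had 10.91 and 13.05 CPM in WT and 10.96 and 12.01 CPM in HELZ-null libraries (log2FC -0.041, SE 0.091). These comparisons describe pairs of which 1 gene was chosen for being low.

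**Figure D5:**
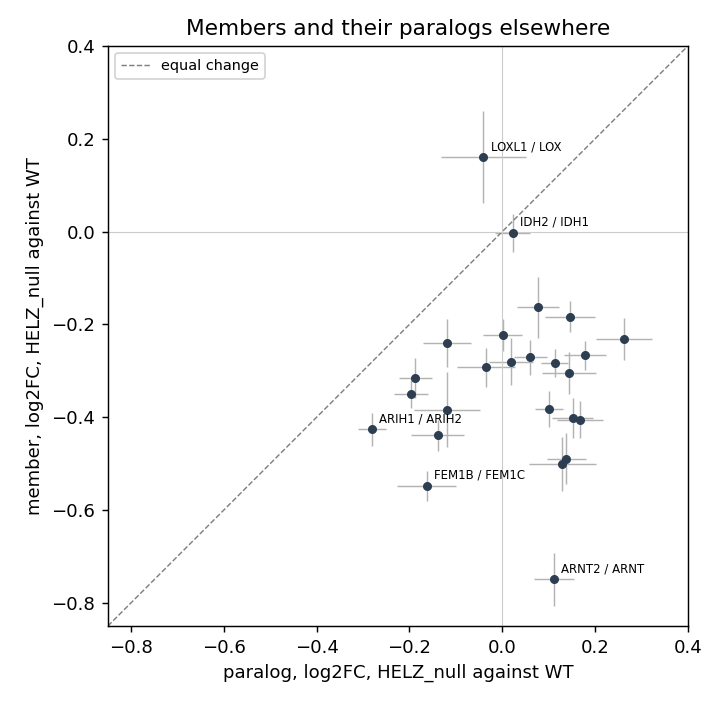
Log2FC of each member against that of its paralog on another chromosome for 25 of the 26 pairs with both genes tested (bars, SE); the remaining pair is not reported here. All pairs shown but LOXL1 and LOX lie below the dashed line of equal change.

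Among the paralogs called higher were RAB11B (log2FC 0.18), ULK1 (0.15), RCN1 (0.11), PCSK7 (0.17) and MEF2D (0.26). MEF2D, like MEF2A a MADS-box factor, had 26.3 and 26.0 CPM in WT and 33.1 and 29.9 CPM in HELZ-null libraries (adjusted p = 4.56e-04 from the edgeR quasi-likelihood test). RAB11B, the second RAB11 GTPase, rose from 49.4 and 49.6 CPM to 54.4 and 57.3 CPM (adjusted p = 1.45e-03 in the same edgeR fit). Those called lower were ARIH2 and FANCD2 on chromosome 3 and CHD1 on chromosome 5. ARIH2, a ubiquitin ligase like ARIH1, fell from 210 and 213 CPM to 177 and 171 CPM (log2FC -0.28, SE 0.031, adjusted p = 3.31e-10 from the edgeR quasi-likelihood test). CHD1 had 104 and 107 CPM in WT and 91.5 and 94.1 CPM in HELZ-null libraries (log2FC -0.19, adjusted p = 3.34e-05 in the edgeR fit). For the departing members, the paralogs IDH1 (log2FC 0.023), ARNT (0.11) and FEM1C (-0.16) were not called. Nor were MAP2K2 (0.10), SMAD2 (-0.12), SMAD7 (-0.12), CLK2 (0.077), MATK (-0.14), SIN3B (0.00063), WRN (-0.035), INSR (0.14) and CORO2A (0.058), paralogs of other members given in detail.

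Genes for proteins that act with the members, here called partners, were listed as well. Of 22 partners, all tested, 4 were called lower and 4 higher (18.2% each, beside the 15.0% and 13.5% of all tested genes), with a median log2FC of 0.014. The partner and paralog lists have 2 genes in common, so their counts are not separate. Nothing particular to partners is read from these counts. GM2A, the activator that presents GM2 ganglioside to HEXA, rose from 61.5 and 59.1 CPM to 70.3 and 71.9 CPM (log2FC 0.24, adjusted p = 9.08e-06 from the edgeR quasi-likelihood test). HEXA itself was not called, and the difference between the 2 genes was not tested.

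For the electron transfer flavoprotein, ETFA was lowered while its other subunit, ETFB, had 68.2 and 72.3 CPM in WT and 75.3 and 77.7 CPM in HELZ-null libraries (log2FC 0.13, adjusted p = 8.22e-03 from the edgeR quasi-likelihood test, not called). ETFDH, the dehydrogenase that takes electrons from this flavoprotein, had 29.0 and 28.7 CPM in WT and 26.2 and 24.9 CPM in HELZ-null libraries (log2FC -0.18, adjusted p = 0.0152 in the edgeR fit, not called). FANCD2, the partner of FANCI, was lower, with 95.4 and 95.1 CPM in WT and 80.4 and 85.5 CPM in HELZ-null libraries (log2FC -0.20, SE 0.037, adjusted p = 3.27e-05 in the edgeR fit). In the SIN3 complex, the deacetylase HDAC2 (log2FC -0.28) and SAP30 (-0.34) were called lower and SAP130 (0.24) higher, while HDAC1 was at 0.017. Of the 6 other BBSome subunits listed beside BBS4, BBS7 was called lower (log2FC -0.54, SE 0.053) and BBS2 higher (0.31, SE 0.054). TIMELESS at 0.050, POLG2 at -0.0061, KIF4A at 0.018, SNRPB2 at -0.097 and the BLM partners TOP3A, RMI1 and RMI2 at 0.026, 0.0069 and 0.16 were not called.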

How the data were processed

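Read counts per gene were deposited by the authors without normalization, with a gene width in bases. Per their methods, ribosomal RNA reads were removed with Bowtie2, paired-end reads were mapped to hg19 with TopHat2, and reads were counted with QuasR. Versions, annotation, strand use and the counting of mates are not given in the sources used here. The count totals of all 4 libraries lie above the range of mapped reads that the paper gives. Whether both mates of a pair were counted was not tested. A second deposited table, with the authors' own fold changes and p-values from edgeR, was not used.

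FPKM was computed from count, library total and width, and a gene was tested where its mean over the 4 libraries was above 2. Counts were scaled by TMM and tested in R 4.3.3 with edgeR 4.0.16 (glmQLFit, glmQLFTest, genotype as the only term), Benjamini-Hochberg adjustment over all 11310 genes and an FDR threshold of 0.005. The SE is the log2FC divided by the root of F. Ratios of single libraries used log2 CPM with a prior count of 2. DESeq2 1.42.0 was an alternative, and the steps were tested on simulated data, from which no value is given here. An exact permutation test of 2 against 2 libraries cannot go below p = 0.333 and was not used. Of the tested genes, 10442 were placed on GRCh37 (GENCODE) by symbol and 535 by an older symbol, and 333 were not placed.

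The members, the role groups and the lists of paralogs, partners and markers were chosen with earlier results of these data known. Genes were named by rule: HELZ, members, the 5 lowest and 5 highest unlisted genes of the interval, and paralogs or partners that were called or belong to members given in detail. The replicates differed by more than counting noise (chi-square per degree of freedom 4.11 in WT, 2.96 in HELZ-null; counting noise alone gives about 1, or about 2 if both mates were counted). Other settings tried were library size or RLE scaling, other gene filters, a replicate block, halved counts, each library left out, a centred median and other margins. A gene of the paralog and partner lists is counted in their totals and not reported here. Figures were drawn with matplotlib 3.10.9.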

Additional observations from a re-analysis of the deposited data

How the results depend on the processing

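The members called lower numbered 38 to 42 under 12 other settings, against 42 (of 48; other filters held 47 to 54 members). Library size scaling moved the split of all calls most, from 1522 higher and 1695 lower (47.3% higher) to 2060 higher and 1312 lower (61.1% higher), with the median of all tested genes at 0.030. It moved the members' median from -0.30 to -0.27, and with single libraries left out the median ranged from -0.32 to -0.30. Over all tested genes DESeq2 called fewer, 1087 higher and 1279 lower, and fewer were also called with single libraries left out. A margin of 0.10 gave 13 departing members and one of 0.20 gave 5, as the rule's construction implies, against 8. Of the 8 departing members, 7 departed in each of 12 other settings and SENP8 in 11, being outside the filter in the remaining one. No stability is read from this, since the settings with all libraries moved the members' values little or nearly alike. Leaving out a library takes pairs away from the rule, so departing members could hardly drop out and others could mostly only be added. With single libraries left out 8 to 12 members departed: CLK3 joined without WT replicate 1, MYO9A, PARP6 and MPI without WT replicate 2, and CLN6, MYO9A, PARP6 and CSK without HELZ-null replicate 2. Of the same 124 unlisted genes 85 to 97 were called lower, against 94; other filters gave 94 of 120, 100 of 192 and 108 of 246, and leaving out genes that overlap a member 88 of 114. The paralogs called lower ranged from 2 to 4 and the partners from 3 to 4.

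With the replicate number as a block, 3510 genes were called in place of 3217, and 42 members. Deviations of same-numbered libraries correlated at 0.020, so the numbers only name the libraries. The block changed no count of members, paralogs or partners called lower. With 2 libraries a group from 1 edited line, the values describe these lines, and where a library was left out the lone one was assumed to vary like the others. Depth limits CELF6, STRA6 and FES most; MEGF11, CORO2B and THSD4 had SEs of 0.12 to 0.17, near the 0.13 of SENP8.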
